A study of Mus musculus with 18 samples.

Results

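The genes described here are 10 regulators of the embryonic spinal cord: Pax6, Olig2, Nkx2-2, Sox1, Hes3, Isl1, Mnx1, Lhx3, Lhx4 and Lmo1. They were chosen by symbol from a list drawn up when results of these same libraries were already known, and all 10 were found among the 55138 genes of the deposited expression table. All 10 also passed the filter on low counts in every comparison. Which measured values led to each gene is not recorded, so levels and fold changes of the 10 genes are given as a description throughout. The calls that the fit over all genes made on them are stated beside the share of all genes called, and nothing further is read from them.

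RNA came from mouse embryos without their head and was sequenced in 18 libraries, 3 for each of 6 groups. Embryos collected at E9.5 were homozygous for HoxB Del(i9-13), a mutation of the HoxB cluster, or wild type. At E10.5 they were Del(i9-13), Del(i9-13):Hoxb13hd, which carries both alleles, Hoxb13hd and wild type, with each mutant homozygous and the wild type embryos being littermates of mutants. The sources used here do not explain hd. They also leave unstated whether each replicate was 1 embryo or several pooled, so every p-value measures spread among libraries, which may be technical. Poly(A) enrichment was used at E9.5 and ribosomal RNA depletion at E10.5, so stage and library type cannot be told apart. The series title ties Hoxb13, a gene at one end of HoxB, to the control of tail length.

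In the developing spinal cord, dividing progenitors next to the central canal carry transcription factors that depend on their dorsoventral position, under a Hedgehog signal from the notochord and floor plate. Progenitors of the Olig2 domain leave the cell cycle and become motor neurons, which switch on LIM-homeodomain factors and Mnx1. Neurons form earlier in the anterior than in the posterior spinal cord, so an embryo at these stages holds both young progenitors and new neurons. The 10 genes were read as 5 progenitor genes (Pax6, Olig2, Nkx2-2, Sox1 and Hes3) and 5 motor neuron and LIM genes (Isl1, Mnx1, Lhx3, Lhx4 and Lmo1). In whole-trunk RNA, fewer cells of a type and less RNA per cell cannot be told apart.

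Total counts per library ran between 19333138 and 35934843. Hoxb13 averaged 15.6 ± 1.43 FPKM in E9.5 Del(i9-13) embryos and 0.0345 ± 0.0195 FPKM in E9.5 wild type (SD, n = 3 each). At E10.5 it averaged 3.14 ± 1.09 FPKM in Del(i9-13), 3.49 ± 0.266 FPKM in Del(i9-13):Hoxb13hd, 0.0158 ± 0.0163 FPKM in Hoxb13hd and 0.144 ± 0.202 FPKM in wild type. FPKM is the authors' unit for levels and is scaled to transcript length and sequencing depth. Overlap between groups was read from FPKM, while log2 changes were fitted to counts. Counts scaled to library size (CPM) can order the libraries otherwise. The share of all genes whose groups did not overlap was not counted, so overlap is given as a description only. Xist was high in replicates 2 and 3 of E9.5 wild type and in no E9.5 Del(i9-13) library, so sex was not balanced there. Sex was not balanced at E10.5 either. There Xist was high in wild type replicate 2, Del(i9-13) replicates 1 and 3, Del(i9-13):Hoxb13hd replicates 2 and 3, and Hoxb13hd replicate 1. These had 9.04 to 9.45 on the log2 CPM scale. Hoxb13hd replicate 3 (3.93) and Del(i9-13):Hoxb13hd replicate 1 (2.82) lay between them and the remaining E10.5 libraries (−0.83 to 1.48). At E10.5 wild type replicate 2, the only wild type library there with high Xist, stood apart from replicates 1 and 3. Its median of 15 pan-neuronal genes was 0.22 below the mean of the stage on the log2 scale, against 0.36 and 0.34 above it.

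**Figure D1:**
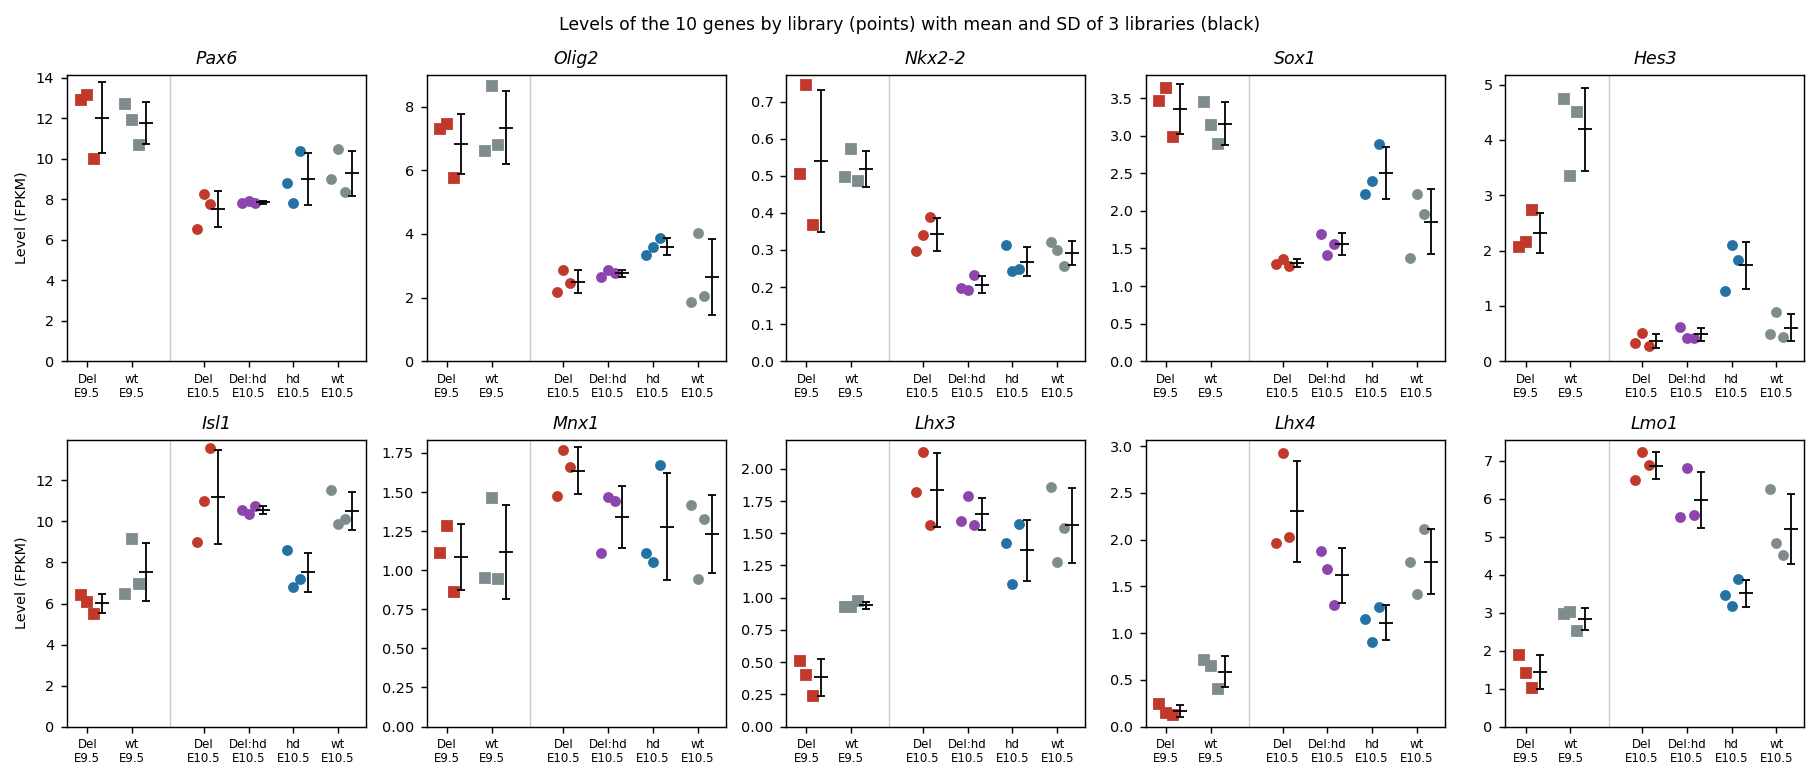
Level of each of the 10 genes in FPKM (vertical axes, starting at 0) in every library (points) of the 6 groups (horizontal axes), with Del standing for Del(i9-13) and hd for Hoxb13hd. Black bars are the mean and SD of 3 libraries. The E9.5 Del(i9-13) points of Hes3, Lhx3, Lhx4 and Lmo1 lie below all E9.5 wild type points, and the E10.5 Hoxb13hd points of Hes3 lie above all other E10.5 points.

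In wild type the progenitor genes were lower and the motor neuron and LIM genes higher at E10.5 than at E9.5. Hes3, which encodes a basic helix-loop-helix repressor of early neuroepithelium, averaged 0.608 ± 0.251 FPKM at E10.5 and 4.19 ± 0.752 FPKM at E9.5, a ratio of 0.145. Olig2 averaged 2.65 ± 1.19 FPKM at E10.5 and 7.34 ± 1.14 FPKM at E9.5, a ratio of 0.361. The ratio of E10.5 to E9.5 was 0.565 for Nkx2-2, 0.587 for Sox1 and 0.788 for Pax6. Lhx4 had the highest ratio of the 10 genes, 3.01, with 1.77 ± 0.351 FPKM at E10.5 and 0.587 ± 0.167 FPKM at E9.5. Lmo1, Lhx3, Isl1 and Mnx1 had ratios of 1.84, 1.66, 1.40 and 1.10. These ratios cross library types and are a description with no test. By FPKM, which is scaled to transcript length, Pax6 had the highest level of the 10 genes in E9.5 wild type, followed by Isl1 and Olig2, and Isl1 had the highest in E10.5 wild type, followed by Pax6 and Lmo1. In E10.5 wild type the spread of Isl1 (10.51 ± 0.904 FPKM) overlapped that of Pax6 (9.27 ± 1.09 FPKM), and Nkx2-2 was the lowest of the 10 at 0.293 ± 0.0322 FPKM.

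At E9.5 the LIM genes were lower in Del(i9-13) embryos than in wild type, Hes3 among the progenitor genes was lower too, and the other 4 progenitor genes were near their wild type level. Lhx3 and Lhx4, LIM-homeodomain factors of newborn motor neurons and of neighbouring V2 interneurons, had the largest differences. Lhx3 (chr2:26200212-26208289, mm10, minus strand) had 0.512, 0.397 and 0.233 FPKM in the Del(i9-13) libraries, against 0.928, 0.926 and 0.975 FPKM in wild type. Lhx4 (chr1:155698031-155751684, minus strand) had 0.244, 0.144 and 0.124 FPKM in Del(i9-13), against 0.715, 0.648 and 0.398 FPKM in wild type. For both genes every Del(i9-13) library lay below every wild type library. The fitted log2 change was −1.36 for Lhx3 (SE 0.28) and −1.74 for Lhx4 (SE 0.30). Lmo1 (chr7:109138572-109175207, minus strand), which encodes a LIM-only protein without a homeodomain that binds the LDB1 adaptor of LIM factors, had 1.89, 1.40 and 1.00 FPKM in Del(i9-13) and 2.95, 3.02 and 2.50 FPKM in wild type. Its groups did not overlap, and its log2 change was −0.93 (SE 0.21). Within Del(i9-13), replicate 3 was the lowest library and replicate 1 the highest for Lhx3, Lhx4 and Lmo1.

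The promoters of Lhx3, Lhx4 and Lmo1 are shown because these genes differed in the same direction at E9.5. Each window holds 250 bases before to 50 after the most upstream start listed (RefSeq, GRCm38.p6, minus strand, 5′ to 3′), at chr2:26208200-26208499 for Lhx3, chr1:155741978-155742277 for Lhx4 and chr7:109175158-109175457 for Lmo1. The Lhx4 window lies inside the span of that gene in the deposited table. Capitals mark TAAT on either strand (ATTA on the strand shown), the core that many homeodomain factors bind.
Lhx3: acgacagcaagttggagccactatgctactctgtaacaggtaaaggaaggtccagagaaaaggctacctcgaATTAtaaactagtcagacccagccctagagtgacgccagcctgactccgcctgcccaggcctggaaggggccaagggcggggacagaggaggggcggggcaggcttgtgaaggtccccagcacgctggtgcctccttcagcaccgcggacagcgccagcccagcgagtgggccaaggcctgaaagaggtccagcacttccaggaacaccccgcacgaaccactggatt
Lhx4: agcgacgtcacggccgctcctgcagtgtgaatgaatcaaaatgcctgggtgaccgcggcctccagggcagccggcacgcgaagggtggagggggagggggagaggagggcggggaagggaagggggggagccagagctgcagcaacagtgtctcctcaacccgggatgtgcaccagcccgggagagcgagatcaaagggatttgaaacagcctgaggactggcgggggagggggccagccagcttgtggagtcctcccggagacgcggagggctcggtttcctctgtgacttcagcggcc
Lmo1: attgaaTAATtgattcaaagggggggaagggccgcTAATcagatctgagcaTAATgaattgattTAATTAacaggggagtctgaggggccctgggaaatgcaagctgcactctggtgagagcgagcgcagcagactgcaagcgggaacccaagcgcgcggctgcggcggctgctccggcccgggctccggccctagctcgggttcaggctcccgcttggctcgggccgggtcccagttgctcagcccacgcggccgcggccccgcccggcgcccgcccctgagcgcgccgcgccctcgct

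The Lmo1 window held 5 matches to TAAT, counting both strands, the Lhx3 window 1 and the Lhx4 window 0. RefSeq promoters were found for 9 of the 10 genes, Hes3 being the exception, in 12 windows. TAAT stood in 10 of the 12 windows, against 58% of all 32851 promoter windows. The 12 windows are not separate promoters, as Lhx3, Pax6 and Lmo1 gave more than a single window each. Those of Lmo1 (chr7:109175158-109175457 and chr7:109175100-109175399) overlap and share TAAT matches. The E-box CANNTG, a motif of basic helix-loop-helix factors such as OLIG2 that reads the same on both strands, stood in 7 of 12, against 72.3% of all windows. CAATAAA, a motif of the HOXB13 type searched on both strands, stood in 1 of 12, a second start of Pax6, against 4.6% of all windows. A match is a stretch of letters and not a site shown to be bound.

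Isl1 (chr13:116298281-116309689, minus strand), the LIM-homeodomain gene switched on first in newborn motor neurons and also used by sensory ganglia and heart, had 6.43, 6.09 and 5.48 FPKM in E9.5 Del(i9-13) and 6.47, 9.12 and 6.97 FPKM in wild type. By FPKM the highest Del(i9-13) library lay just under the lowest wild type library, and the log2 change was −0.33 (SE 0.13). By CPM the groups of Isl1 overlapped, with 18.7 CPM in Del(i9-13) replicate 1 and 17.9 CPM in wild type replicate 1. Mnx1 (chr5:29473034-29478470, minus strand), a homeodomain gene of motor neurons that the notochord and pancreas also use, averaged 1.08 ± 0.212 FPKM in Del(i9-13) and 1.12 ± 0.298 FPKM in wild type (SD, n = 3 each), and its groups overlapped. Its fitted log2 change was −0.0057 (SE 0.22). Isl1, Lhx3, Lhx4, Lmo1 and Mnx1 thus all had a negative log2 change at E9.5, with a median of −0.93, against 0.0018 over all genes tested.

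Hes3 (chr4:152285972-152291662, minus strand) had 2.06, 2.16 and 2.73 FPKM in E9.5 Del(i9-13) and 4.75, 3.34 and 4.497 FPKM in wild type. All Del(i9-13) libraries were below all wild type libraries, with a log2 change of −0.85 (SE 0.18). Pax6 (chr2:105668900-105697364, plus strand), a paired-type homeodomain gene graded across the ventral progenitor zone, averaged 12.02 ± 1.76 FPKM in Del(i9-13) and 11.8 ± 1.02 FPKM in wild type. Olig2 (chr16:91225457-91228677, plus strand), which marks motor neuron progenitors, averaged 6.83 ± 0.933 FPKM in Del(i9-13) and 7.34 ± 1.14 FPKM in wild type. Sox1 (chr8:12395295-12400126, plus strand), a SoxB1 gene of neural progenitors, averaged 3.36 ± 0.335 FPKM in Del(i9-13) and 3.16 ± 0.282 FPKM in wild type. Nkx2-2 (chr2:147177546-147186404, minus strand), a homeodomain gene of the progenitors beside the floor plate, averaged 0.539 ± 0.191 FPKM in Del(i9-13) and 0.518 ± 0.0475 FPKM in wild type. These 4 genes had log2 changes between −0.11 (Olig2) and 0.071 (Sox1), and their groups overlapped.

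In edgeR's quasi-likelihood fit over all genes at E9.5, 0 of the 10 genes were called at an adjusted p of 0.05, beside 0.362% of the 16041 genes tested. At an unadjusted p under 0.05 there were 5 (Hes3, Isl1, Lhx3, Lhx4 and Lmo1), beside 11.7% of all genes tested, and the smallest adjusted p was 0.0658, for Lhx4. DESeq2 called 4 of the 10, which were Hes3, Lhx3, Lhx4 and Lmo1, and 329 genes in all against 58 by edgeR, while limma on log2 FPKM called 0 of the 10. Lhx4 was called in 1 of the 6 edgeR fits that left out a library, the one without wild type replicate 3, with an adjusted p of 0.0382.

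**Figure D2:**
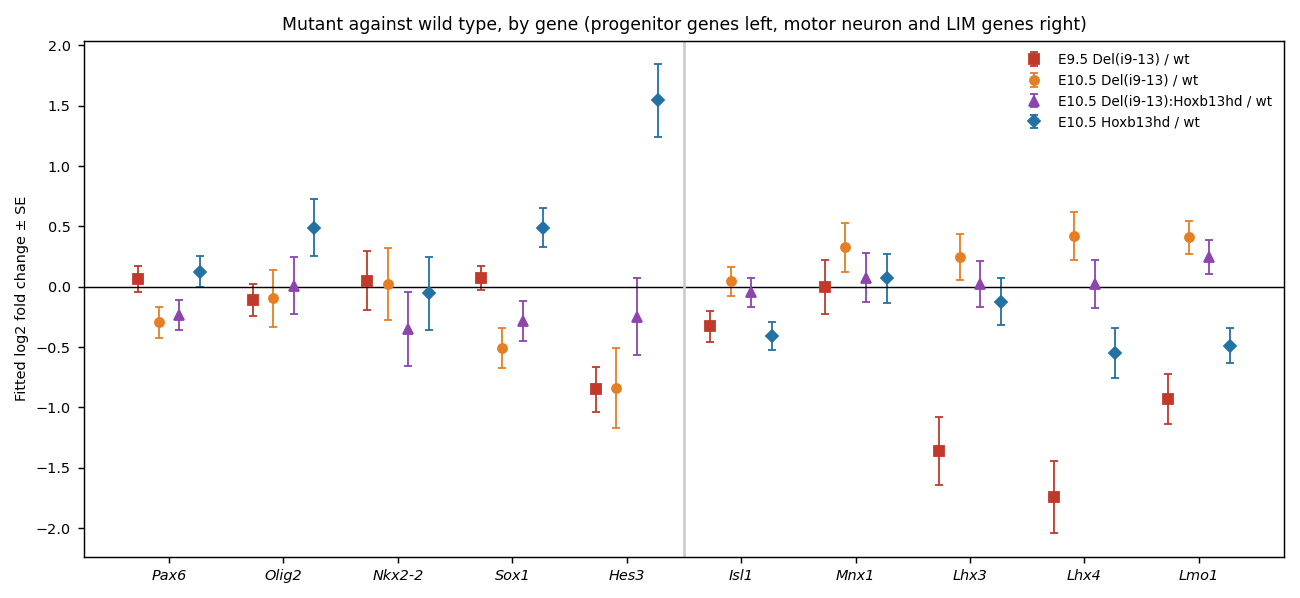
Fitted log2 fold change against wild type of the same stage (vertical axis, ± SE) of each gene (horizontal axis, progenitor genes left of the line) in E9.5 Del(i9-13), E10.5 Del(i9-13), E10.5 Del(i9-13):Hoxb13hd and E10.5 Hoxb13hd embryos, 3 libraries per group. Lhx4 lies at −1.74 in E9.5 Del(i9-13) and at 0.42 in E10.5 Del(i9-13), and Hes3 lies at 1.54 in E10.5 Hoxb13hd. The 3 comparisons at E10.5 share their wild type libraries.

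At E10.5 the LIM genes were not lower in Del(i9-13) embryos. Lmo1 had 6.4998, 7.23 and 6.88 FPKM in Del(i9-13), against 6.26, 4.82 and 4.51 FPKM in wild type. All 3 Del(i9-13) libraries were above the highest wild type library, and the log2 change was 0.41 (SE 0.14). Lhx4 had 1.96, 2.93 and 2.03 FPKM in Del(i9-13), against 1.76, 1.42 and 2.12 FPKM in wild type, and the groups overlapped (log2 change 0.42, SE 0.20). Lhx3 averaged 1.84 ± 0.285 FPKM in Del(i9-13) and 1.56 ± 0.291 FPKM in wild type, Isl1 11.2 ± 2.29 FPKM in Del(i9-13) and 10.51 ± 0.904 FPKM in wild type, and Mnx1 1.63 ± 0.1505 FPKM in Del(i9-13) and 1.23 ± 0.2499 FPKM in wild type. These 3 genes had log2 changes of 0.25, 0.044 and 0.33. The 5 motor neuron and LIM genes were all positive, with a median of 0.33, beside 0.0020 over all genes tested.

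Among the progenitor genes at E10.5, Sox1 had 1.29, 1.36 and 1.26 FPKM in Del(i9-13), against 1.38, 2.23 and 1.96 FPKM in wild type. Every Del(i9-13) library was below every wild type library, by little in the case of wild type replicate 1, and the log2 change was −0.51 (SE 0.17). Hes3 had 0.332, 0.511 and 0.269 FPKM in Del(i9-13), against 0.491, 0.896 and 0.437 FPKM in wild type. Its groups overlapped by FPKM, and the log2 change was −0.84 (SE 0.33). By CPM the groups of Hes3 did not overlap, at 0.841, 0.951 and 0.760 CPM in Del(i9-13) and 1.27, 2.25 and 1.05 CPM in wild type. Pax6 had 6.53, 8.23 and 7.77 FPKM in Del(i9-13), against 8.98, 10.48 and 8.35 FPKM in wild type, and its groups did not overlap (log2 change −0.30, SE 0.13). Olig2 averaged 2.50 ± 0.360 FPKM in Del(i9-13) and 2.65 ± 1.19 FPKM in wild type, where replicate 2 had 4.02 FPKM and the other libraries 1.87 and 2.06 FPKM. Without that replicate the log2 change of Olig2 was 0.35, against −0.096 with it. Nkx2-2 averaged 0.342 ± 0.0450 FPKM in Del(i9-13) and 0.293 ± 0.0322 FPKM in wild type, on 15 to 23 counts per library. In this comparison edgeR called 0 of the 10 genes, beside 0.488% of all genes tested, with 4 at an unadjusted p under 0.05 (Pax6, Sox1, Hes3 and Lmo1), beside 9.13% of all genes tested, and DESeq2 and limma called 0.

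The deletion effects at the 2 stages were set against each other in a fit of the 12 Del(i9-13) and wild type libraries. The effect on Lhx4 was 2.18 higher at E10.5 than at E9.5 on the log2 scale (SE 0.37, adjusted p = 0.0751 by edgeR). That on Lhx3 was 1.62 higher (SE 0.35, adjusted p = 0.186 by edgeR) and that on Lmo1 1.35 higher (SE 0.24, adjusted p = 0.0920 by edgeR). The effect on Sox1 differed between the stages by −0.56 (SE 0.21). That on Hes3 differed by 0.030 (SE 0.41), Hes3 being lower in Del(i9-13) at both stages. edgeR called 0 of the 10 genes, beside 0.0453% of the 17670 genes tested, with 4 at an unadjusted p under 0.05 (Lhx3, Lhx4, Lmo1 and Sox1), beside 6.86%. DESeq2 called 3 of the 10 and limma 0, and edgeR without E9.5 wild type replicate 3 called 1.

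In Hoxb13hd embryos at E10.5, Hes3, Sox1 and Olig2 had higher means, and Isl1, Lhx4 and Lmo1 lower means, than in wild type. Hes3 had 1.27, 2.09 and 1.83 FPKM in Hoxb13hd, against 0.491, 0.896 and 0.437 FPKM in wild type. The lowest Hoxb13hd library was above the highest wild type library, and the log2 change was 1.54 (SE 0.30, adjusted p = 0.0201 by edgeR). Sox1 had 2.23, 2.40 and 2.88 FPKM in Hoxb13hd, against 1.38, 2.23 and 1.96 FPKM in wild type (log2 change 0.49, SE 0.16), the lowest Hoxb13hd library being level with the highest wild type library. Olig2 had 3.34, 3.596 and 3.86 FPKM in Hoxb13hd, above wild type replicates 1 and 3 (1.87 and 2.06 FPKM) and below replicate 2 (4.02 FPKM), with a log2 change of 0.49 (SE 0.24). Pax6 averaged 9.004 ± 1.29 FPKM in Hoxb13hd and 9.27 ± 1.09 FPKM in wild type, and Nkx2-2 0.268 ± 0.0396 FPKM in Hoxb13hd and 0.293 ± 0.0322 FPKM in wild type. Both overlapped between the groups. The fitted log2 change of Pax6 was 0.13 (SE 0.13), the opposite side of 0 from its mean FPKM.

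On the motor neuron side, Lmo1 had 3.47, 3.17 and 3.88 FPKM in Hoxb13hd, against 6.26, 4.82 and 4.51 FPKM in wild type (log2 change −0.49, SE 0.14). Isl1 had 8.60, 6.78 and 7.22 FPKM in Hoxb13hd, against 11.5, 9.85 and 10.1 FPKM in wild type (log2 change −0.41, SE 0.12). Lhx4 had 1.15, 0.910 and 1.28 FPKM in Hoxb13hd, against 1.76, 1.42 and 2.12 FPKM in wild type (log2 change −0.55, SE 0.21). For each of these 3 genes all Hoxb13hd libraries were below all wild type libraries by FPKM. By CPM this held for Lmo1 and Isl1, while the groups of Lhx4 overlapped. How many of all genes were separated in this way was not counted, so the separation is a description only. Lhx3 averaged 1.37 ± 0.240 FPKM in Hoxb13hd and 1.56 ± 0.291 FPKM in wild type, and Mnx1 1.28 ± 0.344 FPKM in Hoxb13hd and 1.23 ± 0.2499 FPKM in wild type, with overlapping groups for both. The 5 progenitor genes had a median log2 change of 0.49 and the 5 motor neuron and LIM genes one of −0.41, beside 0.0031 over all genes tested.

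For Hoxb13hd against wild type, edgeR called 1 of the 10 genes, Hes3, beside 3.01% of all genes tested. At an unadjusted p under 0.05 by edgeR there were 5 (Sox1, Hes3, Isl1, Lhx4 and Lmo1), beside 20.4% of all genes tested. The call on Hes3 was lost without wild type replicate 1 (adjusted p = 0.105 by edgeR) or 3 (0.0810), and without Hoxb13hd replicate 2 (0.108) or 3 (0.0733), while its log2 change stayed between 1.34 and 1.94 in the 6 fits that left out a library. The number of genes called in all was 517, and 57, 110, 51 and 71 in those 4 fits.

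In embryos with both alleles, Hes3 and Sox1 had lower means, and Lmo1, Isl1 and Lhx4 higher means, than in Hoxb13hd embryos. Hes3 had 0.625, 0.411 and 0.422 FPKM in Del(i9-13):Hoxb13hd, against 1.27, 2.09 and 1.83 FPKM in Hoxb13hd, a log2 change of −1.79 (SE 0.30, adjusted p = 0.0191 by edgeR). Sox1 had 1.70, 1.41 and 1.57 FPKM in Del(i9-13):Hoxb13hd, against 2.23, 2.40 and 2.88 FPKM in Hoxb13hd, a log2 change of −0.77 (SE 0.16, adjusted p = 0.0472 by edgeR). Lmo1 had 5.51, 6.81 and 5.57 FPKM in Del(i9-13):Hoxb13hd, against 3.47, 3.17 and 3.88 FPKM in Hoxb13hd, a log2 change of 0.73 (SE 0.14, adjusted p = 0.0339 by edgeR). The groups of Hes3, Sox1 and Lmo1 did not overlap. The call on Sox1 was lost with the replicate block (adjusted p = 0.0501 by edgeR), with Xist as a covariate (0.0664 by edgeR) and with limma (0.0711 and 0.0648). Isl1 had 10.54, 10.4 and 10.8 FPKM in Del(i9-13):Hoxb13hd, against 8.60, 6.78 and 7.22 FPKM in Hoxb13hd, and Lhx4 had 1.87, 1.69 and 1.30 FPKM in Del(i9-13):Hoxb13hd, against 1.15, 0.910 and 1.28 FPKM in Hoxb13hd. Neither gene overlapped between the groups, though the lowest Lhx4 library with both alleles was barely above the highest Hoxb13hd library. Their log2 changes were 0.36 and 0.57.

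Of the remaining genes, by FPKM Olig2 and Nkx2-2 did not overlap between these groups and Pax6 did. By CPM Nkx2-2 overlapped, at 0.531 to 0.781 CPM in Del(i9-13):Hoxb13hd and 0.581 to 1.07 CPM in Hoxb13hd. Pax6 did not overlap by CPM, at 25.8 to 28.9 CPM in Del(i9-13):Hoxb13hd and 31.2 to 41.5 CPM in Hoxb13hd. Pax6 averaged 7.84 ± 0.0748 FPKM in Del(i9-13):Hoxb13hd and 9.004 ± 1.29 FPKM in Hoxb13hd, and Olig2 2.76 ± 0.117 FPKM in Del(i9-13):Hoxb13hd and 3.598 ± 0.258 FPKM in Hoxb13hd. Nkx2-2 averaged 0.207 ± 0.0220 FPKM in Del(i9-13):Hoxb13hd and 0.268 ± 0.0396 FPKM in Hoxb13hd, on 11 to 23 counts per library. Lhx3 and Mnx1 had log2 changes of 0.14 and 0.0051. All 5 progenitor genes were negative, with a median of −0.48, and all 5 motor neuron and LIM genes positive, with a median of 0.36, beside −0.0098 over all genes tested. For Del(i9-13):Hoxb13hd against Hoxb13hd, edgeR called 3 of the 10 genes, Hes3, Sox1 and Lmo1, beside 0.959% of all genes tested. At an unadjusted p under 0.05 by edgeR there were 6 (these 3, Pax6, Isl1 and Lhx4), beside 15.2% of all genes tested. Without any single Del(i9-13):Hoxb13hd library, or without Hoxb13hd replicate 2, edgeR called 0 of the 3 called genes. Without Hoxb13hd replicate 3 it called Lmo1 alone. The number of genes called in all was 165, against 36 to 51 in those 5 fits and 412 without Hoxb13hd replicate 1.

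Against wild type, embryos with both alleles had log2 changes between −0.35 (Nkx2-2) and 0.25 (Lmo1). edgeR called 0 of the 10 genes, beside 0.401% of all genes tested, with 0 at an unadjusted p under 0.05, and DESeq2 and limma called 0. Against Del(i9-13), the same embryos had log2 changes between −0.40 (Lhx4) and 0.59 (Hes3), negative in all 5 motor neuron and LIM genes. There edgeR called 0 of the 10 genes, beside 0.907% of all genes tested, with 0 at an unadjusted p under 0.05, and DESeq2 and limma called 0. The interaction, which asks whether the deletion acts differently with and without hd, was −0.95 for Hes3 (SE 0.45) and 0.32 for both Lmo1 (SE 0.20) and Isl1 (SE 0.17). edgeR called 0 of the 10 genes for it, beside 0.523% of all genes tested, with 0 at an unadjusted p under 0.05, and DESeq2 and limma called 0.

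Put in order at E10.5, mean Hes3 was highest in Hoxb13hd (1.73 ± 0.419 FPKM), followed by wild type (0.608 ± 0.251 FPKM). Next came Del(i9-13):Hoxb13hd (0.486 ± 0.121 FPKM) and Del(i9-13) (0.371 ± 0.126 FPKM). By FPKM wild type, Del(i9-13):Hoxb13hd and Del(i9-13) overlapped each other. By CPM all Del(i9-13) libraries lay below all wild type and Del(i9-13):Hoxb13hd libraries. Mean Sox1 ran in the same order, wild type overlapping or touching its neighbours on each side, with 2.50 ± 0.342 FPKM in Hoxb13hd and 1.30 ± 0.0498 FPKM in Del(i9-13) at the ends. Mean Lmo1 ran in the opposite order, with 6.87 ± 0.364 FPKM in Del(i9-13), 5.96 ± 0.733 FPKM in Del(i9-13):Hoxb13hd, 5.20 ± 0.931 FPKM in wild type and 3.51 ± 0.359 FPKM in Hoxb13hd, and each neighbour in that order overlapped the next except wild type and Hoxb13hd. Mean Lhx4 was highest in Del(i9-13) at 2.31 ± 0.540 FPKM and lowest in Hoxb13hd at 1.11 ± 0.186 FPKM, with wild type and Del(i9-13):Hoxb13hd overlapping between them.

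**Figure D3:**
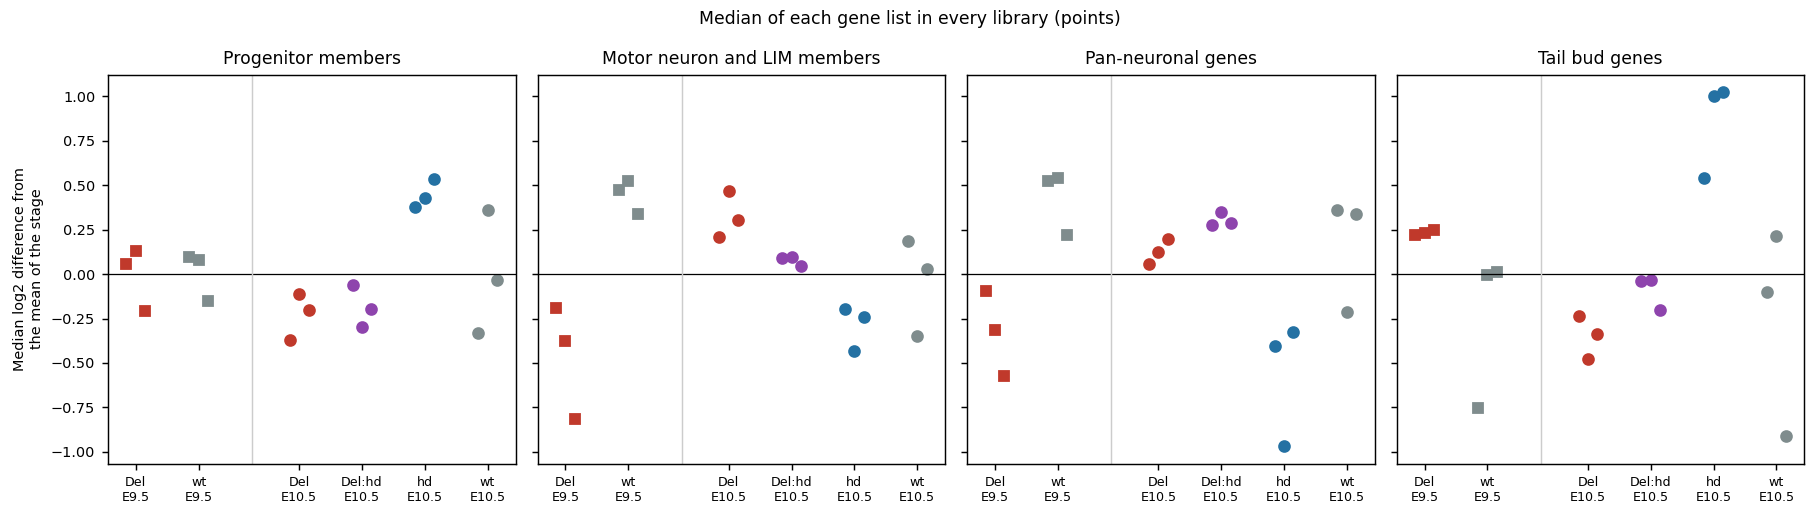
Median, in each library (points), of the log2 difference from the mean of the stage (vertical axis) over 4 gene lists (panels), by group (horizontal axes). Del stands for Del(i9-13) and hd for Hoxb13hd. At E10.5 the Hoxb13hd libraries lie between 0.37 and 0.54 for the progenitor genes and between −0.43 and −0.19 for the motor neuron and LIM genes, and wild type libraries are spread on both sides of 0 in these panels.

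Other genes of the same pathways were read from lists of known genes, drawn up with earlier results of these data known. Of 15 pan-neuronal genes, 13 had a negative log2 change in E9.5 Del(i9-13), with a median of −0.78. edgeR called 0 of them, with 10 at an unadjusted p under 0.05, beside 11.7% of all genes tested. DESeq2 called 7 of them, beside 329 genes in all. Their summed level was 85.6 to 115 CPM, counts scaled to library size, in Del(i9-13) libraries and 140 to 169 CPM in wild type. Dcx, a microtubule protein of migrating neurons, averaged 0.347 ± 0.0801 FPKM in Del(i9-13) and 0.806 ± 0.173 FPKM in wild type at E9.5, with a log2 change of −1.03 (SE 0.20). Of 16 other motor neuron genes 15 were tested and 12 were negative, with a median of −0.18, 7 at an unadjusted p under 0.05, 0 called by edgeR and 3 by DESeq2. Nefm, a neurofilament subunit, averaged 1.35 ± 0.301 FPKM in Del(i9-13) and 2.699 ± 0.405 FPKM in wild type. Onecut2, a transcription factor of newborn neurons, averaged 0.337 ± 0.0510 FPKM in Del(i9-13) and 0.542 ± 0.0429 FPKM in wild type. The tail bud and neuromesodermal list, genes of the posterior growth zone, went the other way, with 14 of 14 positive, a median of 0.39, 0 called by edgeR and 3 by DESeq2, and its summed level was 1016 to 1051 CPM in Del(i9-13) and 794 to 956 CPM in wild type. Wild type replicate 1 stood apart, with a median over the list 0.75 below the mean of the stage, against −0.0063 and 0.013 in the other wild type libraries, and without it the median log2 change of the list was 0.16.

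Medians of the other neural lists were nearer to 0 in E9.5 Del(i9-13). The 12 Hedgehog and floor plate genes had a median of 0.034, 10 other ventral progenitor genes −0.11, 15 neural progenitor and Notch genes −0.10, and 14 LIM partner and LIM-only genes −0.050 over the 13 tested. Dorsal progenitor genes had a median of −0.094 over 10 tested and spinal interneuron genes −0.12 over 15. With a library left out, the ventral progenitor median ran between −0.18 and 0.0088 and the interneuron median between −0.34 and −0.014. Nes, an intermediate filament of neural progenitors, averaged 23.4 ± 3.28 FPKM in Del(i9-13) and 30.7 ± 0.714 FPKM in wild type. edgeR called 0 genes in each of these lists at E9.5, where DESeq2 called 1 in each of the LIM partner, dorsal progenitor and Notch lists. Of the 13 LIM partner genes tested, 7 were at an unadjusted p under 0.05, beside 11.7% of all genes tested. Log2 changes over the 13 were positive in 6 and negative in 7. Ldb1, Lmo4, Lhx1 and Isl2 are on both this list and that of the other motor neuron genes. At E10.5 edgeR called 0 genes of any of the 14 lists between Del(i9-13) and wild type, and DESeq2 called 2 LIM partner, 1 dorsal progenitor and 1 head gene. At E10.5 the 10 other ventral progenitor genes were all negative in Del(i9-13), with a median of −0.16, and 13 of 14 tail bud genes were negative, with a median of −0.20. The tail bud median was −0.42 without wild type replicate 3 and 0.042 without wild type replicate 2, and that of the ventral progenitor genes −0.061 without wild type replicate 2. The pan-neuronal median was −0.032 and that of the other motor neuron genes 0.024 in that comparison.

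In E10.5 Hoxb13hd the pan-neuronal genes were negative in 15 of 15 cases, with a median of −0.65, and edgeR called 4 of them lower, beside 273 lower and 244 higher among the 3.01% of all genes called. These were Nhlh2, a basic helix-loop-helix gene of newborn neurons, Dcx, Elavl4, an RNA-binding protein of neurons, and Map2, a microtubule protein. Nhlh2 had 3.13, 2.41 and 3.67 FPKM in Hoxb13hd, against 7.45, 5.32 and 7.39 FPKM in wild type (log2 change −1.04, adjusted p = 0.0112 by edgeR). Dcx had 2.58, 1.25 and 2.30 FPKM in Hoxb13hd, against 6.27, 2.69 and 7.22 FPKM in wild type (log2 change −1.43, adjusted p = 0.0393 by edgeR). For both genes the groups did not overlap, and Hoxb13hd replicate 2 and wild type replicate 2 were the lowest of their groups. Of the 16 other motor neuron genes, 12 were negative, with a median of −0.37, and −0.20 without Hoxb13hd replicate 2. edgeR called the neurofilament genes Nefl (−1.27) and Prph (−1.36) lower and Ret, a receptor tyrosine kinase (0.63), higher.

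The tail bud list was positive in 14 of 14 genes in Hoxb13hd, with a median of 1.10 and 5 genes called higher by edgeR, beside 244 higher of the 17202 genes tested. The median was 0.79 without wild type replicate 3 and 1.54 without wild type replicate 2. They were Cdx1 (1.16), a caudal homeobox gene, the ligand genes Wnt3a (0.95) and Fgf8 (0.79), Lin28a (0.68), an RNA-binding protein of early development, and Sall4 (0.62), a zinc finger gene. Its summed level was 755 to 899 CPM in Hoxb13hd and 504 to 682 CPM in wild type. Other ventral progenitor genes were positive in 9 of 10 cases (median 0.42), with Sp8, a zinc finger gene, called higher (0.53). Dll1, a Notch ligand, was called higher (0.41) among 15 neural progenitor and Notch genes (median 0.16), and Msx1 (0.61) higher and Ptf1a (−2.85) lower among 14 dorsal progenitor genes (median 0.21). Ptf1a had 0.0441, 0.0651 and 0 FPKM in Hoxb13hd and 0.331, 0.161 and 0.402 FPKM in wild type, so its change rests on few reads. Hedgehog and floor plate genes had a median of 0.038, spinal interneuron genes −0.30 and LIM partner genes −0.0058, with 0 called in each by edgeR. At an unadjusted p under 0.05 there were 4, 9 and 4 of them, beside 20.4% of all genes tested, and DESeq2 called 1 interneuron gene.

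The adjusted p of these calls by edgeR ran between 0.0112 (Nhlh2) and 0.0490 (Wnt3a). Leaving out wild type replicate 1 or 3, or Hoxb13hd replicate 2 or 3, ended the call on each of Dcx, Elavl4, Map2, Prph, Sp8, Dll1, Msx1, Ntrk3, Cdx1, Lin28a, Sall4 and Wnt3a. Nhlh2 was called in 4 of 6 such fits, the exceptions being without wild type replicate 1 and without Hoxb13hd replicate 2. Nefl and Ptf1a were lost in those 4 fits and without Hoxb13hd replicate 1, Fgf8 in those 4 and without wild type replicate 2, and Ret without wild type replicate 1 or 3 or Hoxb13hd replicate 1 or 2.

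Embryos with both alleles had the pan-neuronal genes higher than Hoxb13hd embryos, with 15 of 15 positive, a median of 0.77 and 2 called higher by edgeR. In this comparison edgeR called 0.959% of all genes tested, 116 higher and 49 lower. Nhlh2 averaged 7.81 ± 0.112 FPKM in Del(i9-13):Hoxb13hd and 3.07 ± 0.629 FPKM in Hoxb13hd, a log2 change of 1.23 that was called in all 6 fits that left out a library. Stmn2, a tubulin-binding protein of growing axons, averaged 8.45 ± 0.195 FPKM in Del(i9-13):Hoxb13hd and 3.74 ± 1.11 FPKM in Hoxb13hd (log2 change 1.11), and its call held in 1 of those 6 fits, the one without Hoxb13hd replicate 1. The tail bud list was negative in 14 of 14 genes, with a median of −0.91 and Lin28a called lower (−0.79). Sp8 (−0.55) was called lower and Lhx2 (0.51), a LIM-homeodomain gene of forebrain and dorsal interneurons, higher. The calls on Lin28a, Sp8 and Lhx2 also held in 1 of the 6 fits each, again without Hoxb13hd replicate 1. Against wild type edgeR called Lhx2 higher (0.53) in embryos with both alleles, beside 0.401% of all genes tested, and in 0 of the 6 fits that left out a library. Against Del(i9-13) it called Olig3, a dorsal progenitor gene, higher (0.88), beside 0.907% of all genes tested. That call held in 1 of 6 such fits, the one without Del(i9-13) replicate 1. The calls of Hoxb13hd against wild type and of Del(i9-13):Hoxb13hd against Hoxb13hd share the Hoxb13hd libraries.

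Markers of tissues that also use members of the set were read in the same libraries. The head and brain list of 15 genes summed to 15.2 to 21.5 CPM in E9.5 Del(i9-13) and 22.6 to 25.8 CPM in wild type, with Six6 below 0.1 CPM. Its median log2 change over 5 genes tested was −0.16 in E9.5 Del(i9-13), 0.49 in E10.5 Del(i9-13) and 0.46 in E10.5 Hoxb13hd. At E10.5 the list summed to 34.8 to 38.6 CPM in Del(i9-13), 37.6 to 40.6 CPM in Del(i9-13):Hoxb13hd, 26.2 to 32.7 CPM in Hoxb13hd and 22.6 to 29.2 CPM in wild type, with Six3 and Six6 at 0 in every library. Of the 10 eye and pituitary genes, Crx was at 0 in every library, and the list had a median log2 change of 0.020 in E9.5 Del(i9-13) and 0.39 in E10.5 Hoxb13hd, over 5 genes tested. Of 10 pancreas genes, Ins1 and Ins2 were below 0.1 CPM throughout. The pancreas median was −0.24 in E9.5 Del(i9-13) and −0.65 in E10.5 Hoxb13hd over 7 tested, with Ptf1a, which is on this list too, the gene called. Neurod1 is on both the pancreas and the pan-neuronal lists. Its value was the median of both lists in E10.5 Hoxb13hd, so the −0.65 is not separate from the pan-neuronal one. Sensory and sympathetic ganglion genes had medians of −0.14 in E9.5 Del(i9-13) and −0.34 in E10.5 Hoxb13hd. In the latter Ntrk3, a neurotrophin receptor, was called lower (−0.84), beside 3.01% of all genes called. Second heart field genes had medians of −0.20 and −0.47 in those comparisons, and Fgf8 is on that list too. In E10.5 Hoxb13hd the medians of these lists were smaller without 1 library: 0.098 for head and brain and −0.15 for second heart field without wild type replicate 3, 0.19 for eye and pituitary without wild type replicate 1, and −0.22 for pancreas without Hoxb13hd replicate 2. In E9.5 Del(i9-13) they were −0.069 for head and brain and −0.036 for second heart field without wild type replicate 3, and −0.23 for eye and pituitary without Del(i9-13) replicate 3. The ganglion genes summed to 107 to 124 CPM in E10.5 Hoxb13hd and 128 to 153 CPM in wild type. The part of these tissues, and of the tail bud, in the values of the 10 genes was not tested.

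Transcripts that overlap the 10 genes had few counts. Pax6os1, antisense to Pax6, had 0 to 6 counts per library, and Nkx2-2os and 6430503K07Rik, antisense to Nkx2-2, had 0 to 2 each. Gm27196, antisense to Lhx3, had 1 to 7 counts, and Gm44781, antisense to Lmo1, had 0. Sox1ot lies on the strand of Sox1 and had 21 to 91 counts, so reads shared between them cannot be assigned with certainty. Its counts were 49 to 53 in E10.5 Hoxb13hd, 23 to 47 in Del(i9-13):Hoxb13hd and 21 to 41 in wild type.

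The mean standardized profile of the 10 genes over 18 libraries, centred within each stage, was set against genes with a mean of at least 1 CPM at both stages. There were 13381 of these, members included, and the members were left out of the ranking. Here and for single genes below, symbols that start with Gm and a digit, end in Rik, hold -ps or are bare identifiers were also left out. The most alike by Pearson's r were Cspg5 (0.873), Hk3 (0.834), Igfbpl1 (0.821), Pou3f3 (0.817), Fgfbp3 (0.799) and Ip6k1 (0.794). The libraries share groups and depth, so these values describe likeness in these libraries only. The mean profile also blends progenitor genes with LIM genes, whose log2 changes had opposite signs in several comparisons. Chosen after their values were seen, the closest gene to Lhx4 among single genes was Tbx15 (0.954), that to Lmo1 was Tmem255a (0.977) and that to Pax6 was Sox2 (0.885), a SoxB1 gene of neural progenitors.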

How the data were processed

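The count table deposited by the authors holds whole-number read counts per gene, and the FPKM table deposited by the authors holds levels. The submitters' processing notes name Cufflinks 2.2.1, cutadapt 1.18, STAR 2.7.10a and build mm10. How reads were assigned to genes, including strand and gene models, was not stated in what was used here, so overlapping genes are uncertain. Per the labels' protocols the kits were stranded.

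Counts were fitted in R 4.3.3 with edgeR 4.0.16, after filterByExpr (minimum count 10, minimum total 15) and TMM scaling, by a robust quasi-likelihood test over all genes, separately for 6 libraries at E9.5, 12 at E10.5 and the 12 Del(i9-13) and wild type libraries of both stages. A gene was called where its p, adjusted by Benjamini-Hochberg over every gene in the fit, was under 0.05. The fit was tested on simulated data. CPM values are counts scaled with TMM factors. Chi-square over degrees of freedom between replicates was 13.2 to 35.1, well above sampling noise, so the spread between libraries and not depth limits the well-expressed genes.

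The 10 genes, the 14 gene lists and the rules were chosen with earlier results of these data known. From the lists, genes were named that edgeR called in any comparison or that had the 2 smallest p per list in either Del(i9-13) against wild type comparison, and only some of the second kind are printed. Hoxb13 levels check the labels of the deletion and cannot check those of hd. Alternatives were RLE scaling, no filter, 1 CPM in 3 libraries, DESeq2 1.42.0, limma 3.58.1 on log2 FPKM with a pseudocount of 0.1 or 1, a replicate block, Xist as a covariate, only the groups compared, and each library left out in turn. Their counts for the lists, and the medians of the lists with a library left out, were added after the data were seen. The limma fits kept genes with at least 1 FPKM in 3 libraries. This left out Nkx2-2 in every comparison, and Lhx3 and Lhx4 in the E9.5 fit. The main fit did not treat replicate numbers as pairs. Same-numbered libraries correlated at 0.032 to 0.15 at E9.5 and −0.29 to 0.21 at E10.5. Libraries with different numbers were not correlated for comparison, so these values cannot decide whether replicate numbers pair the samples.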

Additional observations from a re-analysis of the deposited data

How the results depend on the processing

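Of the 10 genes, the number called for E9.5 Del(i9-13) against wild type was 0 by edgeR, 4 without the filter on low counts, 4 with DESeq2, 1 with the replicate block and 0 to 1 when a library was left out. For E10.5 Hoxb13hd against wild type it was 1, with 2 without the filter, 3 with DESeq2 and 0 to 2 when a library was left out. For Del(i9-13):Hoxb13hd against Hoxb13hd it was 3, and 0 to 3 when a library was left out. For the difference between stages it was 0, with 2 without the filter, 3 with DESeq2, 1 with Xist as a covariate and 0 to 1 when a library was left out. The limma fits left out Nkx2-2, so their medians cover fewer genes than those of edgeR. With limma on log2(FPKM + 0.1) the median log2 change was 0.081 for Del(i9-13):Hoxb13hd against Hoxb13hd, against −0.14 by edgeR over the 10 genes. For the interaction it was 0.040, against −0.18 by edgeR. The edgeR log2 change of Nkx2-2 itself was −0.29 and −0.31 in these comparisons. For Del(i9-13):Hoxb13hd against wild type the edgeR median of the 10 genes ran between −0.097 and −0.015 when a library was left out, against −0.020 with all. The cause of these shifts was not tested. Known differences are that limma left out Nkx2-2 and that fits without a library have fewer samples. Among all genes at E9.5, edgeR called 58, against 537 without the filter and 329 with DESeq2, and for E10.5 Hoxb13hd against wild type 517, against 1240 with DESeq2, 272 and 277 with limma, 251 with Xist as a covariate and 333 from the groups compared alone. DESeq2 also called more in the other comparisons, with 276 against 84 for E10.5 Del(i9-13) and 326 against 69 for Del(i9-13):Hoxb13hd against wild type. It called 658 against 165 for Del(i9-13):Hoxb13hd against Hoxb13hd, 673 against 156 for it against Del(i9-13), 297 against 90 for the interaction and 88 against 8 for the difference between stages. Without E10.5 Del(i9-13) replicate 1, edgeR called 1453 genes for Del(i9-13):Hoxb13hd against Del(i9-13) and 285 for Del(i9-13) against wild type. No call on the 10 genes changed direction under these alternatives. Nkx2-2, with 11 to 52 counts per library, is the gene most limited by depth.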
